A study of Mus musculus with 8 samples.

Results

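Interferon-stimulated genes are the genes that cells transcribe when interferon has bound its receptor. A list of 49 of them was chosen by gene symbol, with earlier results of these data known. Of these, 46 were measured among 19938 genes by a probe set that carries that symbol alone. Of the other 3, Isg15 and Gbp2 share their probe set with a second symbol and Ifi44 was matched to none, so they are not analysed here. The cells were bone marrow cells of C57Bl/6 mice. Those that carried the stem cell factor receptor c-Kit were transduced with a lentivirus carrying KLF7, which is a DNA-binding protein of the Krüppel-like family, or with a virus used as control. Every array therefore comes from virus-exposed cells. At 72 hours the Lin- c-Kit+ Sca-1+ fraction (KLS, rich in stem cells and multipotent progenitors) was sorted, and its amplified total RNA was hybridised to 1 Affymetrix array per sample. There were 4 KLF7 and 4 control arrays. The vector's promoter and the age of the mice were not stated. No source used here says that the arrays of a group stem from different animals or cultures. The p-values therefore measure only how far these arrays spread, which may be technical.

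Type I interferons act through the receptor pair encoded by Ifnar1 and Ifnar2, whose kinases Jak1 and Tyk2 phosphorylate STAT proteins. STAT2 acts in a complex with IRF9, which binds a DNA element called the interferon-stimulated response element (ISRE). Its targets bind foreign RNA, block viral entry, degrade RNA or feed back on the pathway. Haematopoietic stem cells respond to interferon as well, leaving quiescence when it is acute, and stem cells of many tissues hold some of these genes at a raised level without infection.

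The promoters are shown first because interferon acts on these genes through them. RefSeq windows of assembly GRCm38.p6, from 250 bases before to 50 after a gene's start, were found for 34 of the 46 measured genes. The core of the ISRE, spelled GAAA, 2 bases of any kind and GAAA, was searched on both strands. It stood in the windows of 15 of the 34 genes (44.1%), against 3.89% of the 15614 genes tested that have a window. A CACCC-like pattern of the kind bound by KLF factors, CCNCNCCC, stood in 16 of 34 (47.1%, against 62.3%). A match is a run of letters and not a shown binding site. The genes were chosen as interferon targets, so the ISRE share describes the list.

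Short stretches of 7 promoters follow, with the ISRE letters in capitals and on the gene's own strand, where a match on the other strand reads as TTTC instead of GAAA. They were picked to show the same letters in genes with higher, nearly equal and lower means on the KLF7 arrays.
Ifitm2, chr7:140955989-140956016, minus strand: caccaacagGAAAAGGAAAttgctagag
Stat2, chr10:128270267-128270294, plus strand: gcaccctggTTTCAGTTTCctttcccta
Trim30a, chr7:104465211-104465238, minus strand: gttctttagTTTCTTTTTCtcagttcct
Rsad2, chr12:26456554-26456581, minus strand: tggtccaacTTTCATTTTCagaaaacag
Oas1a, chr5:120907521-120907554, minus strand: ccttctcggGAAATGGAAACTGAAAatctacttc
Gbp3, chr3:142559990-142560023, plus strand: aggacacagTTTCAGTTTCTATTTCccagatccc
Eif2ak2, chr17:78882536-78882563, minus strand: gtccgccggGAAAACGAAAcagaagaga
Ifitm2, Stat2, Trim30a, Rsad2 and Oas1a had higher means on the KLF7 arrays, Gbp3 differed by -0.03, and Eif2ak2 had a lower mean. Oas1a and Gbp3 hold a pair of overlapping matches. The 250 bases before the start are shown for Ifit1, a classical target with a pair of matches, and for Oas3 and Phf11a, whose arrays separated the groups. Of the other genes whose arrays did so, Ifitm1 had a window without the letters, and Zbp1 and Shfl had no window.
Ifit1, chr19:34640639-34640888, plus strand: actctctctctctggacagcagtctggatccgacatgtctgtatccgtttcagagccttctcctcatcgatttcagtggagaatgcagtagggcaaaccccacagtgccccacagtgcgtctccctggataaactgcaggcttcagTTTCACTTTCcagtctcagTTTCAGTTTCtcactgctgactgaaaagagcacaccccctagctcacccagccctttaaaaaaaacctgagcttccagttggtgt
Oas3, chr5:120777660-120777909, minus strand: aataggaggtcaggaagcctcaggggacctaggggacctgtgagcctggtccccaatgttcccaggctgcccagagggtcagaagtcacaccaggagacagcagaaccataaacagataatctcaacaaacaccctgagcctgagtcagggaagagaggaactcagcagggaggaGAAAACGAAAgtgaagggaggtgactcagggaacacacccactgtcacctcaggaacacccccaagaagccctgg
Phf11a, chr14:59297523-59297772, minus strand: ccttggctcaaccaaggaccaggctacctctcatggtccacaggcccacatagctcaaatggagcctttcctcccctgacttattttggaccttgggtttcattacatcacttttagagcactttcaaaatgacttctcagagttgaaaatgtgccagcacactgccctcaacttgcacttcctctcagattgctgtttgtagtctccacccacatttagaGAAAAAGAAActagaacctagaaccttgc
The matches of Ifit1 begin 104 and 85 bases before the start, that of Oas3 75 bases and that of Phf11a 29 bases before it. Median differences between KLF7 and control were 0.36 for the 15 genes with the letters, of which 13 had a higher mean, and 0.24 for the 19 without, of which 16 did. Both medians lay above 0. Genes without a window, Ifi27l2a, Zbp1 and Shfl among them, are in neither set.

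All levels are log2 of the deposited intensities, and differences are KLF7 minus control on that scale. Array medians over genes lay between 54.5 and 57.7 intensity units, and any pair of arrays correlated over genes at 0.936 to 0.982. Klf7, the transduced gene, was at 11.43, 10.19, 11.05 and 10.52 on the KLF7 arrays and 8.53, 10.28, 9.35 and 7.98 on the control arrays, with a difference of 1.76 (SE 0.46, limma adjusted p 0.327) and an exact two-sided permutation p of 0.0571. Control 2 lay above KLF7 2, so the groups overlapped and are named by their labels. Kit, which encodes the receptor the cells were sorted on, was at 10.52, 9.96, 10.37 and 7.85 on the KLF7 arrays and 9.57, 9.85, 9.69 and 8.33 on the control arrays, lowest on the arrays numbered 4 in both groups. Ly6a, which encodes Sca-1, was not analysed here. In bulk RNA, fewer cells of a type and less RNA per cell cannot be told apart.

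The interferon-stimulated genes stood higher on the KLF7 arrays as a list, by small amounts and with none past the test of group alone. Of the 46 genes, 39 had a higher mean there (50.4% of all genes did) and 7 a lower one (49.6%). The median difference was 0.33 on the log2 scale, against 0.00 over all genes. The list was chosen with earlier results of these data known, so these counts describe it and are no independent test. Its genes also moved together across arrays, so they are not 46 separate observations. In limma with group as the only term, p-values were adjusted by Benjamini-Hochberg over all genes. By that fit 0 of the 46 had an adjusted p under 0.05 (0% of all genes), and the smallest was 0.279. With the array number as a block, Ifi27l2a and Shfl passed (0.451% of all genes). Whether the number pairs the samples is not stated in any source used here. With group alone, at an unadjusted p under 0.05 in limma, 10 were higher (4.65% of all genes) and 1 was lower (3.56%). The arrays of the groups were fully apart for 5 genes: Ifitm1, Oas3, Zbp1 and Phf11a with all KLF7 arrays above all control arrays (2.83% of all genes) and Shfl with all KLF7 arrays below (2.38%). Differences of at least 1 on the log2 scale were found for Ifi27l2a and Phf11a, higher (0.602% of all genes), and Shfl, lower (0.191%). On the same arrays 8 of 9 dendritic cell markers had higher means, with a median of 1.05. The MHC class II presentation genes Ciita, H2-Aa, H2-Ab1, H2-Eb1 and Cd74 differed by 1.26, 1.41, 1.05, 1.42 and 1.00, and Itgax by 1.29. Ciita is the master regulator of MHC class II, so these genes are not separate markers. Among the 9 the narrower markers Xcr1, Clec9a and Zbtb46 differed by 0.25, -0.19 and 0.12. The part of dendritic cells in the levels of the list was not tested.

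**Figure D1:**
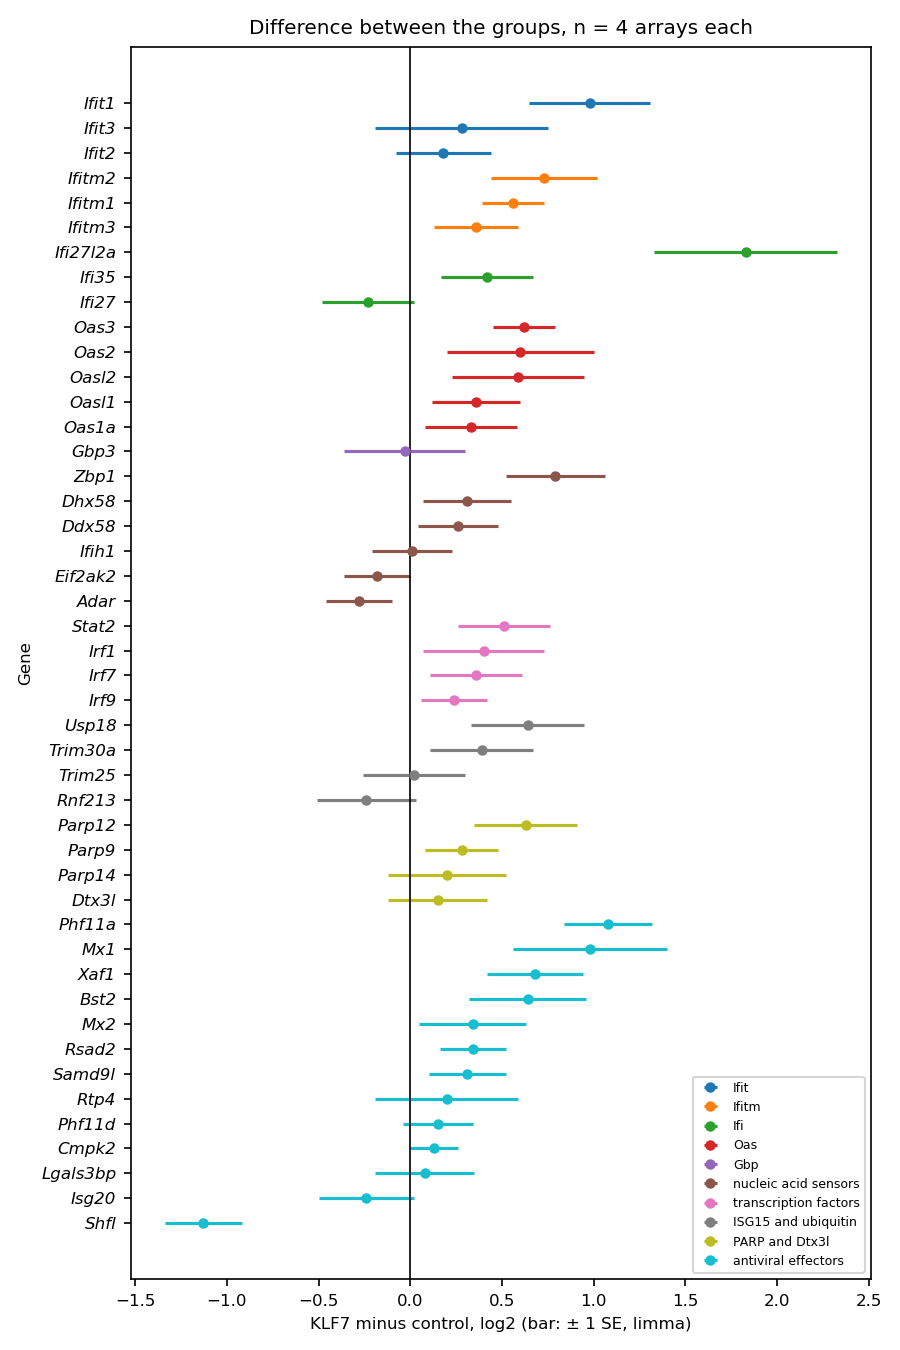
Difference between the KLF7 and control means (log2, horizontal axis) for each of the 46 genes (vertical axis), coloured by role group, with bars of 1 standard error from limma, n = 4 arrays each. Ifi27l2a at 1.83 stands farthest right and Shfl at -1.13 farthest left, and 39 of the 46 points lie above 0.

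The arrays numbered 3 carried the lowest levels of these genes in both groups. The mean over the 46 genes was 7.87, 7.82, 7.24 and 7.91 on KLF7 arrays 1 to 4 and 7.50, 7.52, 6.95 and 7.51 on control arrays 1 to 4. Within the KLF7 group array 3 was the lowest for 39 of 46 genes, against 21.9% of all genes, and within the control group for 34 of 46, against 22.1%. Markers of other cells moved with these arrays. Array 3 had the highest value of its group for 7 of 7 neutrophil markers in the KLF7 group and 6 of 7 in the control group, and the lowest for 7 and 8 of 9 dendritic cell markers. In the same order it was lowest for 6 and 5 of 10 stem and progenitor markers. For monocyte and macrophage markers it was lowest for 5 and 3 of 7, and for erythroid markers highest for 2 and 3 of 3. Summed neutrophil intensities were 7322, 9986, 18785 and 2380 on KLF7 arrays 1 to 4 and 10866, 12246, 21172 and 2095 on control arrays 1 to 4. The part of these cells in the low levels of array 3 was not tested. Leaving out control 3 brought the median difference to 0.17 and the genes higher at an unadjusted p under 0.05 in limma to 6 (3.46% of all genes). Without KLF7 3 these were 0.49 and 17 (4.82%). Phf11a, whose lowest KLF7 value stood on the array left out, then passed the adjusted test (limma adjusted p 0.0247). It was the 1 gene of all genes that did (0.00502%). Without both arrays numbered 3 the median was again 0.33, 39 of 46 means were higher and 10 genes were higher at an unadjusted p under 0.05 (3.49%). Without KLF7 2, 6 genes were (4.42%).

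**Figure D2:**
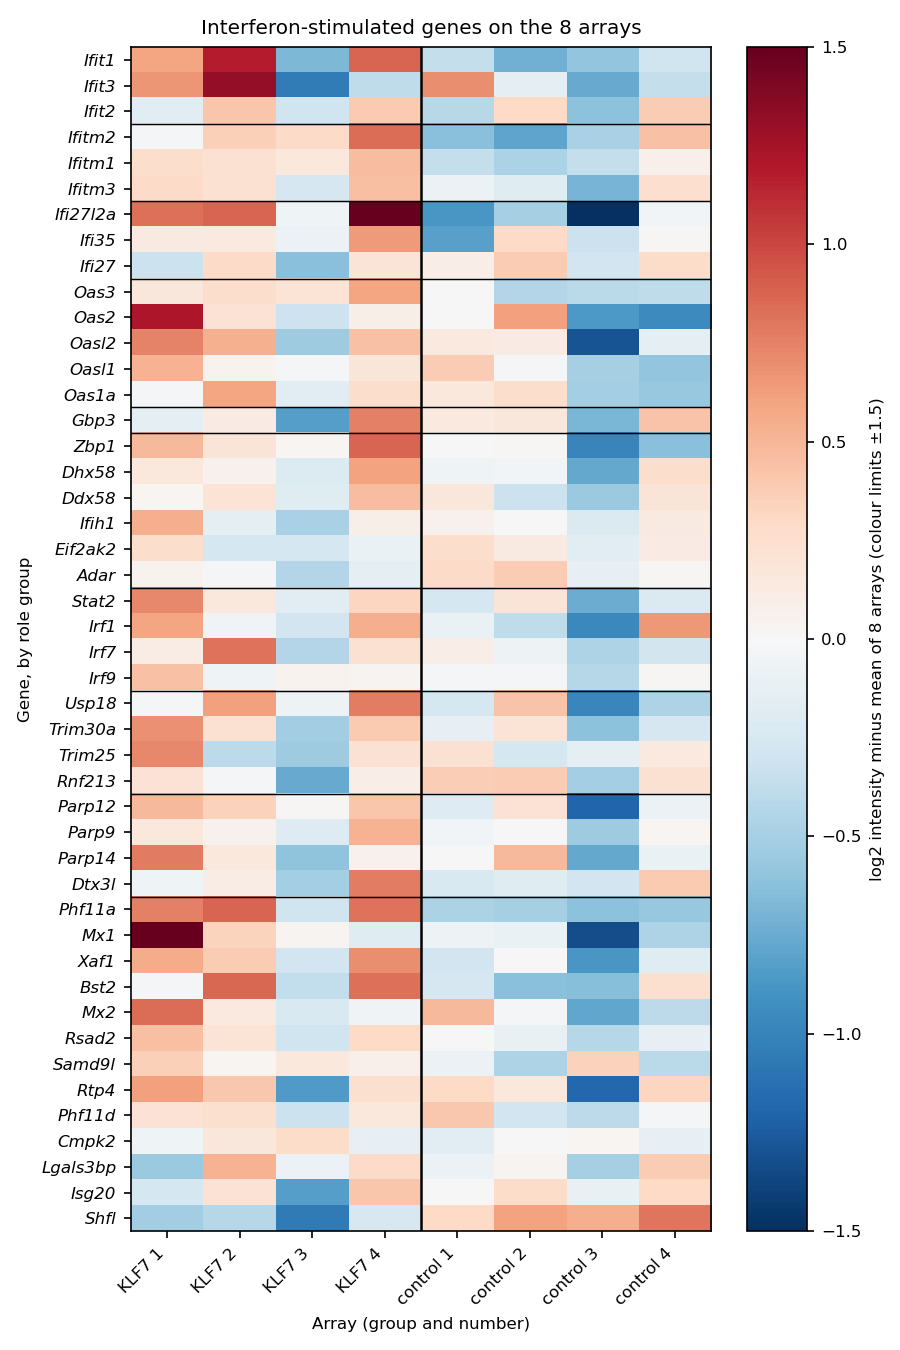
Level of each gene (rows, by role group) on each array (columns), as log2 intensity minus the gene's mean over the 8 arrays, with colours ending at 1.5 on either side. The columns KLF7 3 and control 3 are bluest within their groups, and the row of Shfl runs opposite to most of the others.

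The pathway upstream of the list was described from genes written down together with it. Of the 16 interferon genes measured, 10 had a higher and 6 a lower mean, with a median difference of 0.01, and 13 of the 16 had a signal below the median of all genes. Ifnb1, which encodes interferon beta, was at 4.03, 3.72, 3.78 and 3.52 on the KLF7 arrays and 3.79, 3.43, 3.49 and 3.21 on the control arrays, with a difference of 0.28 (SE 0.15, limma adjusted p 0.68). Ifna16 (difference -0.44, SE 0.15, limma adjusted p 0.459), Ifng, the type II interferon (difference -0.35, SE 0.16, limma adjusted p 0.626), and Ifnab (difference -0.31, SE 0.18, limma adjusted p 0.747) had lower means on the KLF7 arrays. Among 14 receptor and signalling genes 13 had higher means, at a median of 0.27. Jak2, a kinase of the interferon gamma receptor and of several cytokine receptors, was at 10.49, 9.17, 9.36 and 9.46 on the KLF7 arrays and 9.02, 8.77, 8.82 and 8.78 on the control arrays. Its groups did not overlap, as for 2.83% of all genes in that direction, and the difference was 0.77 (SE 0.27, limma adjusted p 0.469). It was the 1 gene of the 14 that was higher at an unadjusted p under 0.05 in limma (4.65% of all genes). Ifngr2, a chain of the interferon gamma receptor, differed by 0.51 (SE 0.24, limma adjusted p 0.642), Ptpn6, a phosphatase that dampens cytokine signals, by 0.45 (SE 0.21, limma adjusted p 0.635) and Il10rb, a receptor chain shared with interferon lambda, by 0.48 (SE 0.27, limma adjusted p 0.708).

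A further list of 17 genes covered steps that lead to interferon production and steps that restrain it. Of these 14 were measured, and Mb21d1, Tmem173 and Traf3 were matched to no probe set. Of the 14 genes 12 had higher means, at a median of 0.25. At an unadjusted p under 0.05 in limma 4 were higher (4.65% of all genes). Irf5, a factor that drives inflammatory cytokine genes, was at 9.37, 8.22, 8.20 and 8.94 on the KLF7 arrays and 7.89, 7.63, 7.38 and 8.11 on the control arrays (difference 0.93, SE 0.29, limma adjusted p 0.41). Tlr9, an endosomal receptor for DNA, was at 6.78, 7.21, 6.78 and 7.04 on the KLF7 arrays and 6.17, 6.08, 6.00 and 6.66 on the control arrays (difference 0.72, SE 0.19, limma adjusted p 0.327). For Irf5, Tlr9 and Samhd1, a nucleotide hydrolase (difference 0.81, SE 0.25, limma adjusted p 0.409), every KLF7 array lay above every control array (2.83% of all genes). Myd88, the adaptor of most Toll-like receptors, overlapped between the groups (difference 0.66, SE 0.28, limma adjusted p 0.591).

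Within the list the transcription factors come first. STAT2 and IRF9 belong to the ISRE-binding complex, IRF7 carries the later wave of interferon alpha, and IRF1 serves both interferon types. Means of all 4 were higher on the KLF7 arrays, at a median of 0.38, and none had an unadjusted p under 0.05. Stat2 was at 8.45, 7.88, 7.56 and 8.05 on the KLF7 arrays and 7.46, 7.92, 6.98 and 7.51 on the control arrays. Control 2 lay above KLF7 2 and KLF7 3, and the difference was 0.51 (SE 0.25, limma adjusted p 0.643). Irf7 was at 7.23, 7.93, 6.67 and 7.34 on the KLF7 arrays and 7.21, 7.04, 6.65 and 6.84 on the control arrays. KLF7 1, 2 and 4 stood above all control arrays for Irf7, KLF7 1 by very little, and the difference of 0.36 (SE 0.25, limma adjusted p 0.813) was 0.14 without KLF7 2. Irf1 was at 7.96, 7.31, 7.08 and 7.91 on the KLF7 arrays and 7.27, 6.99, 6.40 and 8.02 on the control arrays, with control 4 the highest of the 8 arrays. Its difference of 0.40 (SE 0.33, limma adjusted p 0.861) was 0.14 without control 3. Irf9 was at 8.05, 7.55, 7.67 and 7.65 on the KLF7 arrays and 7.59, 7.58, 7.19 and 7.63 on the control arrays and differed by 0.24 (SE 0.18, limma adjusted p 0.833), or 0.13 without KLF7 1. The second probe set of Irf1 gave a difference of 0.39.

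IFIT proteins bind RNA ends that lack the marks of the cell's own transcripts. The means of all 3 Ifit genes were higher, at a median of 0.28, but their arrays spread widely. Ifit1 was at 6.17, 6.76, 4.91 and 6.46 on the KLF7 arrays and 5.23, 4.86, 4.99 and 5.28 on the control arrays. On KLF7 arrays 1, 2 and 4 it lay above every control array, while KLF7 3 lay within the control range. Its difference was 0.98 (SE 0.33, 1.98-fold, limma adjusted p 0.454), with 6.07 ± 0.81 against 5.09 ± 0.20 (SD, n = 4 each), 1.37 without KLF7 3 and 0.76 without KLF7 2. Ifit3 was at 6.17, 6.82, 4.45 and 5.12 on the KLF7 arrays and 6.20, 5.37, 4.75 and 5.14 on the control arrays, so control 1 stood above 3 of the KLF7 arrays, and its difference of 0.28 (SE 0.47, limma adjusted p 0.951) was -0.12 without KLF7 2. Ifit2 was at 4.99, 5.57, 4.85 and 5.54 on the KLF7 arrays and 4.73, 5.45, 4.53 and 5.53 on the control arrays, with a difference of 0.18 (SE 0.26, limma adjusted p 0.941) that was 0.00 without control 3 and 0.34 without control 4. All 3 had a signal below the median of all genes. Ifit3 has a near-identical neighbour, Ifit3b, and whether their probe sets tell them apart was not tested.

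The Ifitm genes encode small membrane proteins that hinder the fusion of enveloped viruses with the cell and are abundant in many stem cells. The mean of each of the 3 was higher, at a median of 0.56, and each was higher on the KLF7 array of all 4 same-numbered pairs (11.2% of all genes). Ifitm1 was at 12.72, 12.69, 12.62 and 12.92 on the KLF7 arrays and 12.10, 11.98, 12.10 and 12.53 on the control arrays. The lowest KLF7 array stood just above control 4, the highest control array, so the groups did not overlap, and the exact two-sided permutation p was 0.0286, the smallest that 70 splits of 8 arrays allow. Its difference was 0.56 (SE 0.17, 1.47-fold, limma adjusted p 0.39). Ifitm2 was at 10.55, 10.93, 10.85 and 11.40 on the KLF7 arrays and 9.94, 9.78, 10.08 and 11.01 on the control arrays. Control 4 overlapped with the KLF7 arrays for Ifitm2, and the difference was 0.73 (SE 0.29, 1.66-fold, limma adjusted p 0.528). Ifitm3 was at 11.65, 11.59, 11.11 and 11.82 on the KLF7 arrays and 11.28, 11.18, 10.67 and 11.61 on the control arrays and differed by 0.36 (SE 0.23, limma adjusted p 0.784), or 0.19 without control 3. Other probe sets of Ifitm1 (0.49) and Ifitm2 (0.58 and 0.51) gave differences in the same direction. These genes resemble one another, and whether each probe set reads 1 of them was not tested.

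Of the Ifi genes measured, Ifi27l2a, which encodes a small hydrophobic membrane protein, had the greatest difference in the list. It was at 10.00, 10.05, 9.11 and 11.20 on the KLF7 arrays and 8.30, 8.67, 6.93 and 9.13 on the control arrays. KLF7 1, KLF7 2 and KLF7 4 stood above all control arrays, and KLF7 3 lay just below control 4. The difference was 1.83 (SE 0.50, 3.56-fold, limma adjusted p 0.362), with an exact two-sided permutation p of 0.0571, and it ranged from 1.39 without control 3 to 2.16 without KLF7 3. Ifi27, a relative of the same family, was at 8.13, 8.74, 7.83 and 8.65 on the KLF7 arrays and 8.55, 8.84, 8.17 and 8.73 on the control arrays. All 4 same-numbered differences of Ifi27 were below 0 (9.69% of all genes). The groups differed by -0.23 (SE 0.25, limma adjusted p 0.914), by -0.06 without KLF7 3 and by -0.37 without KLF7 2. Ifi35, a leucine zipper protein gene, was at 7.42, 7.43, 7.20 and 7.93 on the KLF7 arrays and 6.47, 7.58, 6.96 and 7.30 on the control arrays, with control 2 above 3 of the KLF7 arrays. Its difference of 0.42 (SE 0.25, limma adjusted p 0.765) was 0.21 without control 1.

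**Figure D3:**
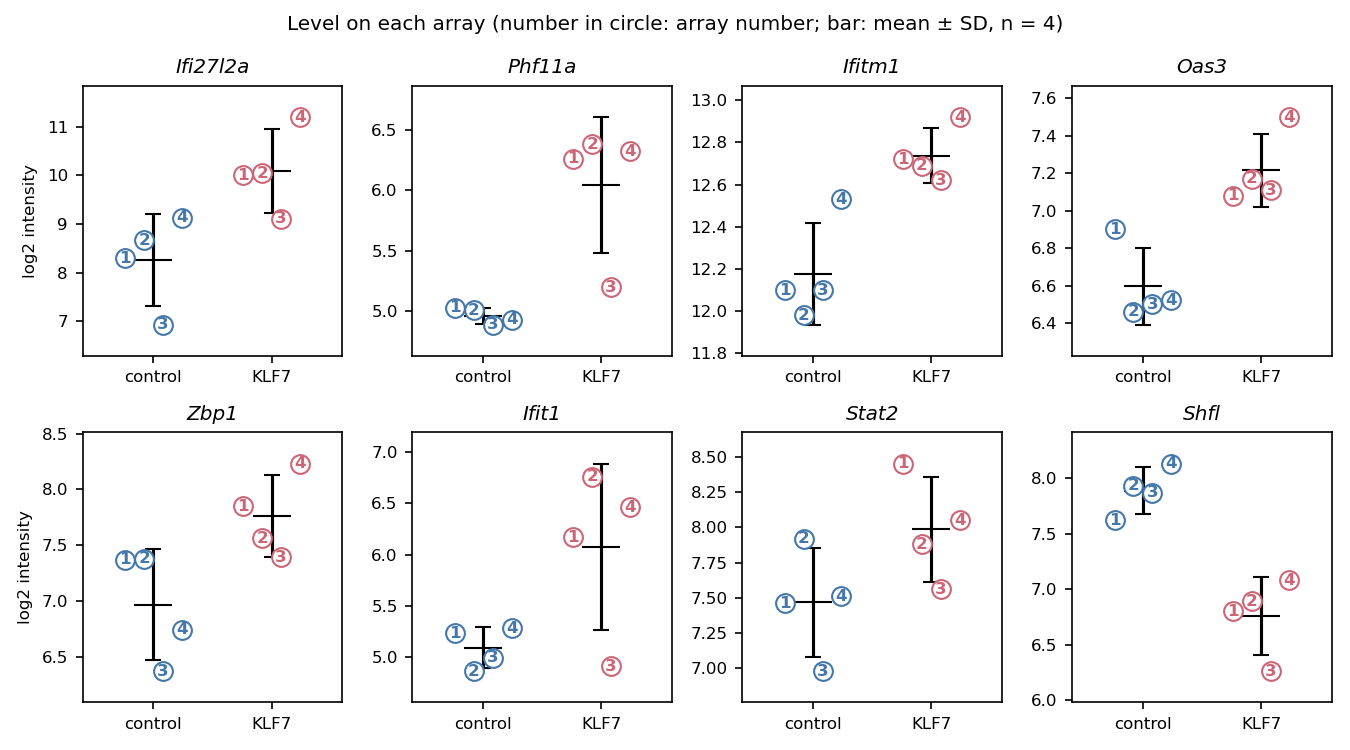
Log2 intensity (vertical axis, a separate scale in each panel) of 8 genes on the control (blue) and KLF7 (red) arrays, with the array number in each circle and bars for the mean and SD of 4 arrays. Ifitm1, Oas3, Zbp1 and Phf11a have every KLF7 circle above every control circle, Shfl has every one below, and Ifi27l2a, Ifit1 and Stat2 overlap.

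OAS enzymes make the 2′-5′ oligoadenylates that switch on RNase L, which cuts RNA. All 5 genes of the family had higher means, at a median of 0.59 and a range of 0.33 to 0.62, but 1 separated the groups. Oas3 was at 7.08, 7.17, 7.11 and 7.50 on the KLF7 arrays and 6.90, 6.46, 6.50 and 6.52 on the control arrays. Control 1 was the highest control array and still lay below the lowest KLF7 array. Its difference was 0.62 (SE 0.17, 1.54-fold, limma adjusted p 0.362), with 7.22 ± 0.19 against 6.60 ± 0.21 (SD, n = 4 each) and an exact two-sided permutation p of 0.0286. Oasl2 was at 8.26, 8.05, 6.98 and 7.96 on the KLF7 arrays and 7.66, 7.64, 6.22 and 7.38 on the control arrays. Its difference of 0.59 (SE 0.36, limma adjusted p 0.767) was 0.25 without control 3, its lowest array. Oasl1, which lacks synthetase activity and restrains IRF7 translation, was at 7.57, 7.10, 7.01 and 7.22 on the KLF7 arrays and 7.42, 7.03, 6.55 and 6.45 on the control arrays, and it differed by 0.36 (SE 0.24, limma adjusted p 0.784), or 0.23 without control 4. Oas2, named after its values were seen, had a difference of 0.60 (SE 0.40) that was -0.40 between the arrays numbered 2. Oas1a differed by 0.33 (SE 0.25) and has near-identical copies that its probe set may not tell apart.

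Guanylate-binding proteins are large GTPases that interferon gamma induces and that attack membranes around intracellular microbes. Gbp3 was at 5.98, 6.24, 5.29 and 6.87 on the KLF7 arrays and 6.26, 6.28, 5.43 and 6.54 on the control arrays. Array 3 was the lowest and array 4 the highest in both groups, and the difference of -0.03 (SE 0.33, limma adjusted p 0.995) was close to 0, between -0.29 without KLF7 4 and 0.24 without KLF7 3. Gbp3 was the single Gbp gene of the list with its own probe set.

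The sensors of foreign nucleic acid were divided, with 4 higher and 2 lower means and a median of 0.13. Zbp1, which binds Z-form nucleic acids and can start necroptosis, was at 7.85, 7.56, 7.39 and 8.23 on the KLF7 arrays and 7.37, 7.38, 6.37 and 6.74 on the control arrays. The lowest KLF7 array exceeded the highest control array by very little, the difference was 0.79 (SE 0.27, 1.73-fold, limma adjusted p 0.461), and the exact two-sided permutation p was 0.0286. Dhx58, the helicase LGP2, was at 6.71, 6.62, 6.34 and 7.15 on the KLF7 arrays and 6.48, 6.51, 5.78 and 6.81 on the control arrays. Its difference of 0.31 (SE 0.24, limma adjusted p 0.838) was 0.10 without control 3. Adar, which edits adenosine in double-stranded RNA and so keeps self RNA from the sensors, was at 7.40, 7.33, 6.91 and 7.21 on the KLF7 arrays and 7.64, 7.73, 7.23 and 7.37 on the control arrays. It was lower on the KLF7 array in all 4 same-numbered pairs (9.69% of all genes), by -0.28 (SE 0.18, limma adjusted p 0.787) between the groups and by -0.18 without KLF7 3. The helicases Ddx58 (RIG-I) and Ifih1 (MDA5) differed by 0.26 (SE 0.22) and 0.01 (SE 0.22), and Eif2ak2, the kinase PKR, by -0.18 (SE 0.18).

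Enzymes of ISG15 and ubiquitin and the ADP-ribosyltransferases had mostly higher means, with medians of 0.20 over 4 genes and 0.24 over 4. Usp18, which strips ISG15 from proteins and blocks the interferon receptor, was at 7.52, 8.17, 7.47 and 8.32 on the KLF7 arrays and 7.29, 7.98, 6.57 and 7.09 on the control arrays. Control 2 overlapped with the KLF7 arrays, and the difference was 0.64 (SE 0.31, limma adjusted p 0.65), or 0.41 without control 3. Trim30a was at 9.66, 9.21, 8.45 and 9.37 on the KLF7 arrays and 8.85, 9.18, 8.36 and 8.73 on the control arrays, with a difference of 0.39 (SE 0.28, limma adjusted p 0.813) that was 0.23 without KLF7 1 and 0.63 without KLF7 3. Rnf213, a giant ubiquitin ligase, was at 8.72, 8.47, 7.75 and 8.61 on the KLF7 arrays and 8.87, 8.89, 8.0 and 8.73 on the control arrays. It was lower on the KLF7 array in all 4 same-numbered pairs (9.69% of all genes), by -0.24 (SE 0.27, limma adjusted p 0.928) between the groups. That value was -0.02 without KLF7 3 and -0.45 without control 3. Its second probe set gave -0.17. Trim25, which acts on RIG-I, differed by 0.02 (SE 0.28).

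Parp12, an antiviral member of its family, was at 7.53, 7.39, 7.07 and 7.47 on the KLF7 arrays and 6.85, 7.26, 5.86 and 6.96 on the control arrays. Control 3 was far below the rest, and the difference of 0.63 (SE 0.28, 1.55-fold, limma adjusted p 0.595) was 0.34 without it. Parp9 was at 7.55, 7.45, 7.19 and 7.91 on the KLF7 arrays and 7.34, 7.39, 6.85 and 7.41 on the control arrays, a difference of 0.28 (SE 0.20, limma adjusted p 0.821) that was 0.14 without control 3. Its partner Dtx3l, a ubiquitin ligase, differed by 0.15 (SE 0.27). Parp14 was at 8.32, 7.69, 6.93 and 7.60 on the KLF7 arrays and 7.53, 8.02, 6.77 and 7.44 on the control arrays. The difference of 0.20 (SE 0.32, limma adjusted p 0.946) was -0.03 without KLF7 1 or without control 3.

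Of the 13 remaining antiviral genes 11 had higher means, at a median of 0.31, and Shfl and Phf11a had the largest differences, in opposite directions. Shfl, an inhibitor of ribosomal frameshifting and of several viruses, was at 6.80, 6.89, 6.26 and 7.08 on the KLF7 arrays and 7.62, 7.93, 7.87 and 8.13 on the control arrays. Every KLF7 array lay below every control array by a clear gap, and the levels were 6.76 ± 0.35 against 7.89 ± 0.21 (SD, n = 4 each). The difference was -1.13 (SE 0.21, 2.19-fold lower, limma adjusted p 0.279), with an exact two-sided permutation p of 0.0286, and without any 1 array it stayed between -1.24 and -0.97. Phf11a, a PHD finger gene, was at 6.26, 6.38, 5.20 and 6.32 on the KLF7 arrays and 5.03, 5.01, 4.89 and 4.93 on the control arrays. The control arrays lay close together, and KLF7 3 was near them while the other KLF7 arrays were more than 1 above. Levels were 6.04 ± 0.56 against 4.96 ± 0.07 (SD, n = 4 each), a difference of 1.08 (SE 0.24, 2.11-fold, limma adjusted p 0.323). Its relative Phf11d differed by 0.15 (SE 0.19). Xaf1, which counters an inhibitor of caspases, was at 8.45, 8.27, 7.60 and 8.59 on the KLF7 arrays and 7.60, 7.88, 7.01 and 7.70 on the control arrays and differed by 0.68 (SE 0.26, 1.61-fold, limma adjusted p 0.511), with control 2 above KLF7 3.

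Named after its values were seen, Mx1, a dynamin-like GTPase that is not functional in C57Bl/6 mice, was at 7.83, 6.38, 6.09 and 5.87 on the KLF7 arrays and 5.97, 5.95, 4.72 and 5.59 on the control arrays. KLF7 1 stood far above the other arrays, and the difference was 0.98 (SE 0.42, 1.98-fold, limma adjusted p 0.574). Bst2, or tetherin, which holds budding virions on the cell, was also named after its values were seen. It was at 8.94, 9.83, 8.60 and 9.80 on the KLF7 arrays and 8.72, 8.35, 8.34 and 9.21 on the control arrays and differed by 0.64 (SE 0.32, limma adjusted p 0.666). The other 8 genes of this group, Mx2, Rsad2, Cmpk2, Isg20, Rtp4, Samd9l, Lgals3bp and Phf11d, lay between -0.24 (Isg20) and 0.34 (Mx2 and Rsad2). None of the 8 had an unadjusted p under 0.05 in limma.

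Arrays of the same number were then set against each other. KLF7 exceeded control for 34 of 46 genes between the arrays numbered 1, 32 between those numbered 2, 33 between those numbered 3 and 35 between those numbered 4. Over all genes the shares were 48.9%, 51.1%, 53.6% and 49.6%. Median differences were 0.34, 0.19, 0.32 and 0.36, against -0.01, 0.01, 0.03 and -0.00 over all genes. Higher in all 4 pairs were 21 genes (11.2% of all genes), and 5 were lower in all 4 (9.69%): Shfl, Adar, Eif2ak2, Ifi27 and Rnf213. The leading gene varied by number. Mx1 led between the arrays numbered 1 (1.86), Ifit1 between those numbered 2 (1.89) and Ifi27l2a between those numbered 3 (2.19) and 4 (2.07). Shfl was the lowest gene in all 4, at -0.82, -1.05, -1.61 and -1.05. Between the arrays numbered 2, where Klf7 itself differed by -0.10, Ifit1, Bst2 (1.48) and Ifit3 (1.45) had their greatest differences. The number is shared by titles only, and no source used here says that it pairs the samples.

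**Figure D4:**
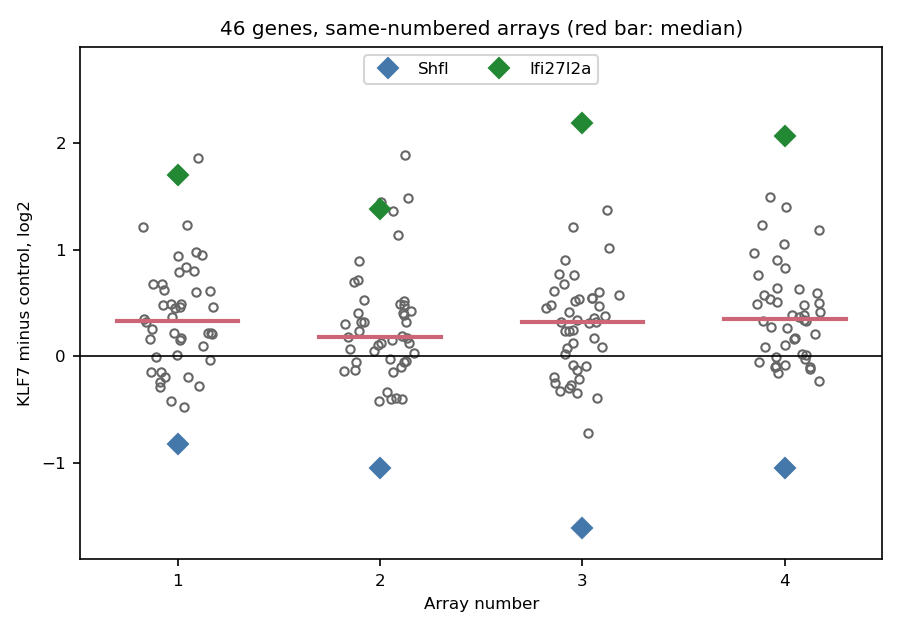
KLF7 minus control (log2, vertical axis) between arrays of the same number (horizontal axis) for each of the 46 genes, with red bars for the medians of 0.34, 0.19, 0.32 and 0.36. Ifi27l2a (green) was above 1.3 at each number and Shfl (blue) was below -0.8 at each.

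Markers of other cells were read on the same arrays. All 9 dendritic cell markers were measured. Of these 6 were higher at an unadjusted p under 0.05 in limma (4.65% of all genes), namely Itgax, Ciita, H2-Aa, H2-Ab1, H2-Eb1 and Cd74. The summed intensity of the 9 was 5227 to 13867 on the KLF7 arrays and 1793 to 6500 on the control arrays. Ciita, the master regulator of MHC class II, was at 9.29, 8.32, 8.0 and 8.11 on the KLF7 arrays and 7.02, 7.84, 6.72 and 7.09 on the control arrays, and Itgax, which encodes CD11c, was at 8.42, 7.07, 6.71 and 7.57 on the KLF7 arrays and 6.67, 6.04, 5.35 and 6.56 on the control arrays. Both had their lowest control value on control 3, as did 34 of the 46 interferon-stimulated genes. Xcr1, Clec9a and Zbtb46, which mark conventional dendritic cells more narrowly, differed by 0.25 (SE 0.15), -0.19 (SE 0.23) and 0.12 (SE 0.15), with levels from 4.17 to 5.80. RMA values hold no 0. Of 7 monocyte and macrophage markers measured out of 8, 5 had higher means, with a median of 0.36 and summed intensities of 1897 to 3228 against 1370 to 2328. Ccr2, a chemokine receptor, and Adgre1, which encodes F4/80, were higher at an unadjusted p under 0.05 in limma (4.65% of all genes). The groups were fully apart for Ccr2, as for 2.83% of all genes in that direction (difference 0.62, SE 0.18, limma adjusted p 0.382). Adgre1 differed by 0.86 (SE 0.27, limma adjusted p 0.41). Of 6 plasmacytoid dendritic markers measured out of 7, which belong to the cells that make the most interferon alpha, 3 were higher and 3 lower, with a median of -0.02 and sums of 447 to 874 against 623 to 1163. Ly6d was at 6.11, 6.29, 6.32 and 6.06 on the KLF7 arrays and 5.72, 5.87, 5.93 and 5.76 on the control arrays. Its KLF7 arrays all lay above its control arrays, as for 2.83% of all genes (difference 0.38, SE 0.13, limma adjusted p 0.461). Cox6a2 had the largest difference of these markers, -0.85 (SE 0.56, limma adjusted p 0.787). It was lower on the KLF7 array in all 4 same-numbered pairs (9.69% of all genes). Siglech, a surface lectin of plasmacytoid dendritic cells, was at 5.39, 5.01, 5.23 and 4.74 on the KLF7 arrays and 5.18, 5.35, 4.86 and 5.47 on the control arrays. The part of any of these cells in the levels of the interferon-stimulated genes was not tested.

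Among the other marker lists, summed intensities of the KLF7 and control arrays overlapped. The ranges were 2380 to 18785 against 2095 to 21172 for 7 neutrophil markers, 305 to 786 against 639 to 1001 for 7 T and NK cell markers and 145 to 194 against 160 to 274 for 5 B cell markers. They were 326 to 513 against 353 to 643 for 3 erythroid, 1428 to 6106 against 2013 to 8207 for 4 megakaryocyte and 581 to 8796 against 386 to 7558 for 4 mast cell and basophil markers. The lowest neutrophil sum and the lowest mast cell and basophil sum stood on the array numbered 4 in both groups. Of the 7 neutrophil markers 5 had higher means. Mpo (difference -1.11, SE 0.75, limma adjusted p 0.792) and Elane (difference -1.02, SE 0.88, limma adjusted p 0.869) had lower ones. Both were lower in all 4 same-numbered pairs (9.69% of all genes). For the 10 stem and progenitor markers measured out of 12 the sums were 3698 to 5799 against 3730 to 4355. Of these 10, 8 had higher means under KLF7, at a median of 0.21. Procr, a stem cell surface receptor, differed by 0.49 (SE 0.23, limma adjusted p 0.644). Hlf, a stem cell transcription factor gene, was lower on all KLF7 arrays than on any control array, as were 2.38% of all genes (difference -0.90, SE 0.23, limma adjusted p 0.327).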

How the data were processed

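Total RNA of sorted cells was measured on 8 single-colour arrays with a biotin label. The deposited values are probe set intensities on a linear scale, from 2.20 to 15393. Per the submitters' processing notes the authors summarised them by RMA with Affymetrix Expression Console. Versions and any later step: not given in the sources used here. RMA and RNA amplification can compress differences of dim genes. The deposited intensities were turned into log2 values for every test.

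Of 35554 probe sets, 21789 carried 1 symbol in the platform annotation and 1621 several. The probe set with the highest mean was kept for each gene, which left 19938 genes and no filter on signal. The model, lmFit followed by eBayes with a trend in limma 3.58.1 under R 4.3.3, held group as its only term, and two-sided p-values were adjusted by Benjamini-Hochberg over all genes. Single genes were also tested by exact permutation. The fit was tested on simulated data with separate noise for each gene and array. Shifts shared by many genes of an array were not simulated, so that test does not cover them. The members, role groups and other lists were chosen with earlier results of these data known.

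Values on every array are given for up to 3 genes per role group by smallest unadjusted p, for Irf7, Stat2, Irf1, Ifit1, Ifi27l2a, Shfl and Klf7, and for differences of at least 1 log2. From other lists up to 4 genes are named by smallest p. Other genes, Xcr1, Clec9a, Zbtb46 and Kit among them, were named after their values were seen. Alternatives left out each array, blocked on the replicate number, repeated a normalisation by quantiles or by array medians, weighted arrays, dropped the trend, averaged probe sets, left out the dimmer 50% of genes or added 16 intensity units. Settings without both arrays numbered 2, 3 or 4 were chosen after seeing the data.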

Additional observations from a re-analysis of the deposited data

Results flagged for a closer look

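Of 96 groups of 4 arrays examined for a value far from the others by Dixon's test, 9 held one. For separate groups chance gives about 4.8 (about 1 group in 20). The genes moved together across arrays, so these groups are not separate and the comparison shows no excess over chance. The mean of the 46 genes on KLF7 3 (7.24) and on control 3 (6.95) lay far below the other 3 arrays of its group. Single genes with a low value on control 3 were Irf9 (7.19), Parp9 (6.85) and Rtp4 (6.68), and on KLF7 3 Phf11a (5.20) and Phf11d (4.64). High values stood on control 1 for Oas3 (6.90) and on control 4 for Dtx3l (8.27).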

How the results depend on the processing

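The median difference of the 46 genes stayed above 0 in all settings run, from 0.17 (without control 3) to 0.49 (without KLF7 3) when each array was left out, with 34 to 40 higher means. Genes higher at an unadjusted p under 0.05 in limma ranged from 6 (without KLF7 2 or control 3) to 17 (without KLF7 3). Calls by limma adjusted p ranged from 0 to 1 over all genes and from 0 to 1 among the 46, where the call was Phf11a without KLF7 3. Klf7 ranged from 1.41 to 2.18. With the replicate block limma called 90 genes (0.451%), 2 of them in the list, Ifi27l2a (adjusted p 0.0167) and Shfl (0.0368), and 18 members were higher at an unadjusted p under 0.05 (7.57%). Deviations of same-numbered arrays from their group means correlated over genes at 0.350, -0.126, 0.362 and 0.699. KLF7 1, 3 and 4 correlated best with the control array of their own number and KLF7 2 did not, so the samples were taken to share only a number. Gbp3 (-0.29 to 0.24), Parp14 (-0.03 to 0.43) and Ifit3 (-0.12 to 0.67) changed sign when single arrays were left out. Gbp3 was at 0.04 with array weights and 0.00 without both arrays numbered 3, and Ifit3 at -0.11 without both arrays numbered 2. The cause was not tested. The number of arrays limits the precision, and 7 of the 46 genes had a signal below the median of all genes.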

Other observations

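Relatives of the listed genes were measured as well. Of 40 further genes of the Ifit, Oas, Ifi, guanylate-binding, immunity-related GTPase and HIN-200 families, 26 had a probe set of their own. A higher mean on the KLF7 arrays was found for 21 of these 26, with a median difference of 0.13, and none had an unadjusted p under 0.05 in limma or passed after adjustment. Gbp7, a guanylate-binding protein gene, was at 7.38, 7.44, 7.28 and 8.09 on the KLF7 arrays and 6.97, 6.96, 6.95 and 7.43 on the control arrays, with a difference of 0.47 (SE 0.21, limma adjusted p 0.613). Ifit3b, the neighbour of Ifit3, differed by 0.27 (SE 0.12, limma adjusted p 0.613), Ifit1bl2 by 0.19 (SE 0.09, limma adjusted p 0.661) and Oas1d by -0.16 (SE 0.09, limma adjusted p 0.726). Ifit3b, Ifit1bl2 and Oas1d were dim, at percentiles 7.2, 2.25 and 3.4 of the signal over all genes. Signals of 13 of the 26 lay below the median of all genes.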
